A study of Caenorhabditis elegans with 4 samples.

Results

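Histone genes were examined in whole synchronized adult Caenorhabditis elegans, comparing eggd-1 null mutants with control animals. EGGD-1, listed in the deposited table under its other name mip-1, is a germ granule protein that holds P granules against germ cell nuclei, and the study asked how its loss changes the transcriptome. The control libraries (n = 2) came from animals labelled pgl-1::RFP, which carry a fluorescent tag on the P granule protein PGL-1. The mutant libraries (n = 2) were labelled eggd-1 only. The study describes the eggd-1 allele as a deletion of the full open reading frame. In its separate RNAi inheritance assay, some eggd-1 animals were left out because they had no germ cell nuclei. Whether the sequenced pools held such animals is not stated. Each library was rRNA-depleted total RNA from a pool of adults with no treatment. Because the RNA came from whole animals, fewer cells of a type and less RNA per cell cannot be told apart.

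The histone genes were chosen by name from the 47115 rows of the deposited table: every gene named his or hil with a number, and htz-1. The rule found 81 genes. They were then split by a property of the deposited counts, namely whether a row held a fractional count in any library, which happens when reads that map to several loci are divided between them. Of the 65 replication-type genes, which encode the core histones H2A (17 genes), H2B (17), H3 (15) and H4 (16), 64 had fractional counts and his-37, an H4 gene, was the exception with 610, 747, 506 and 430 counts. Of the 6 variant genes only his-69 had fractional counts, and none of the 9 linker genes did. The remaining gene, his-73, was not assigned to a class and had no count in any library. An adjusted p-value was available for 79 of the 81 genes, all but his-69 and his-73.

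Core histones H2A, H2B, H3 and H4 wrap DNA into nucleosomes, and linker histone H1 binds the DNA between them. Replication-type core histone genes lie in arrays of near-identical copies. Their mRNAs are made mainly in S phase, lack introns and, in animals, usually end in a stem-loop bound by SLBP (CDL-1 in C. elegans) rather than a poly(A) tail. Variants such as H2A.Z and H3.3 come from separate genes, usually with introns and polyadenylated mRNA, and are placed into chromatin outside S phase. In adult hermaphrodites most dividing cells are in the germ line and in the embryos carried in the uterus. In the annotation used here, 61 of the 65 replication-type genes had a single exon and 4 had an annotated 3′ UTR, whereas 13 of the 15 variant and linker genes had more than 1 exon.

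The libraries held 17603513 to 30812591 counts. Histone genes took 1.79% and 2.17% of all counts in controls and 1.44% and 1.27% in mutants. The targeted gene mip-1 had 2074 and 3177 counts in controls and only 6 and 3 in mutants, so the labels and the counts match. Normalized counts are deposited counts divided by DESeq2 size factors. Fold changes below are eggd-1 over control, and a gene was called higher or lower at a DESeq2 adjusted p under 0.05. The vitellogenin genes vit-2, vit-5 and vit-6, yolk genes of the adult intestine, were abundant in all 4 libraries, as in adult hermaphrodites. They summed to 838170 and 1114887 normalized counts in controls and 1229676 and 1413495 in mutants. Vit-2 and vit-6 were called higher (log2 fold changes 0.63 ± 0.15 SE and 0.53 ± 0.14), and vit-5 was not called (-0.20 ± 0.16). Nothing in the labels says that the 2 libraries of a group came from separate cultures, though the study's methods call them biological replicates, so p-values measure only the spread between these samples.

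Histone RNA was lower in eggd-1 animals for most histone genes. Of the 79 genes with an adjusted p, 49 were called lower (62%) and 4 were called higher (5.06%). Among all 16773 rows tested, 20.4% were called lower and 18.6% were called higher. The histone rows are not independent: 37 of the 65 replication-type genes had counts within 2% of another copy in all 4 libraries. Their shares are therefore descriptions. The median log2 fold change of the histone genes was -0.80, against -0.01 over all rows averaging 10 or more normalized counts, and values ran from -2.12 to 0.96. Summed over the histone genes, the normalized count of eggd-1 animals was 0.676 times that of the controls. At 4-fold or more, 4 histone genes were called lower, beside 0.763% of all rows. The largest rise, 0.96 on the log2 scale, was under 4-fold, beside 5.67% of all rows called higher at that size. In 52 of the 79 genes both eggd-1 libraries lay below both control libraries (38.8% of all rows), and in 9 both lay above (38.5% of all rows).

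By type, 42 of 65 replication-type genes were called lower (64.6%) and 3 higher (4.62%), beside 20.4% and 18.6% of all rows, with a median log2 fold change of -0.93. The 3 higher calls were H2B copies with counts within 2% of each other. Of the 5 variant genes tested, 3 were called lower and none higher by DESeq2, also at an unadjusted p under 0.05, while edgeR called his-70 higher. Of the 9 linker genes, 4 were called lower (44.4%) and 1 higher (11.1%), beside the same shares of all rows, with a median of -0.58. Without control replicate 1 the count of histone genes called lower was 57, and without eggd-1 replicate 1 or 2 it was 38 and 39. None of the 4 higher calls held when either eggd-1 library was left out.

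All 4 core classes fell in sum, H4 the most and H2B the least. H4 genes summed to 72111 and 80950 normalized counts in controls and 41100 and 37731 in mutants, a log2 ratio of -0.96 with a spread between libraries of 0.10. H3 genes summed to 93385 and 125924 against 71503 and 63380, a log2 ratio of -0.70 (spread 0.23). H2A genes gave 57967 and 77140 against 51447 and 47427, a log2 ratio of -0.45 (spread 0.21). H2B genes gave 107151 and 153474 against 106417 and 97344, a log2 ratio of -0.36 (spread 0.27). The eggd-1 libraries were thus below both control libraries in every class, but for H2B the nearest libraries of the groups almost met. These sums carry no test, because the members were chosen with results known.

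**Figure D1:**
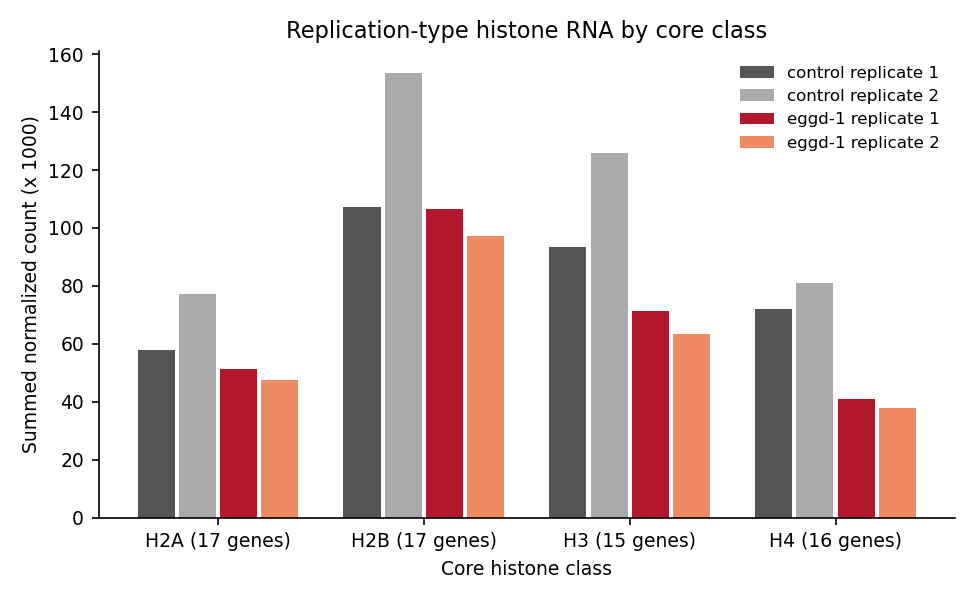
Summed normalized counts (y axis, in units of 1000) of the replication-type genes of each core histone class (x axis) in the 4 libraries, 1 bar for each library. H4 falls from sums of 72111 and 80950 in the controls to 41100 and 37731 in eggd-1, while the H2B bar of control replicate 1 (107151) is almost level with that of eggd-1 replicate 1 (106417).

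The makeup of the core histone counts therefore differed between the groups. These counts were not scaled by gene length, and reads mapping to more than 10 loci had been dropped, so shares of counts may differ from shares of RNA. H2B took 32.4% and 35.1% of replication-type counts in controls and 39.3% and 39.6% in mutants. H4 took 21.8% and 18.5% in the controls and 15.2% and 15.3% in the mutants. The ratio of H2B to H4 counts was 1.49 and 1.90 in the control libraries and 2.59 and 2.58 in the eggd-1 libraries. The control libraries differed from each other more than the eggd-1 libraries did. Control replicate 2 was above control replicate 1 in 64 of the 65 replication-type genes, and eggd-1 replicate 1 was above eggd-1 replicate 2 in 63.

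Within each core class the change differed widely between copies: H2A genes ran from -2.12 to 0.26 on the log2 scale, H2B genes from -1.66 to 0.47, H3 genes from -2.02 to -0.03 and H4 genes from -2.06 to 0.18. The changes are therefore given by position. Arrays were defined here as genes no more than 100000 bases apart, which gave 10 arrays, and this grouping was chosen after the values had been seen, so it is a description. Each array is called by its chromosome and number of genes, with positions from the Ensembl annotation of WBcel235. In 7 arrays 36 of 37 genes were called lower and the median log2 fold change was -1.36. In the 12-gene array of chromosome IV 6 genes were called lower, with a median of -0.48. In the 13-gene array of chromosome II and the 3-gene array of chromosome V no gene was called lower by DESeq2 or edgeR, and none was lower at an unadjusted p under 0.05. Copies of an array share reads and are not independent: 37 of the 65 genes had counts within 2% of another copy of their class in all 4 libraries, in 34 pairs, and in every such pair both genes lay in the same array. This limit does not detect partial sharing. The H4 gene his-38 and the H3 gene his-40, each the only gene of its class in the array of chromosome X, also had fractional counts. Reads were thus also shared with loci outside an array, and the values of different arrays are not fully separate.

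**Figure D2:**
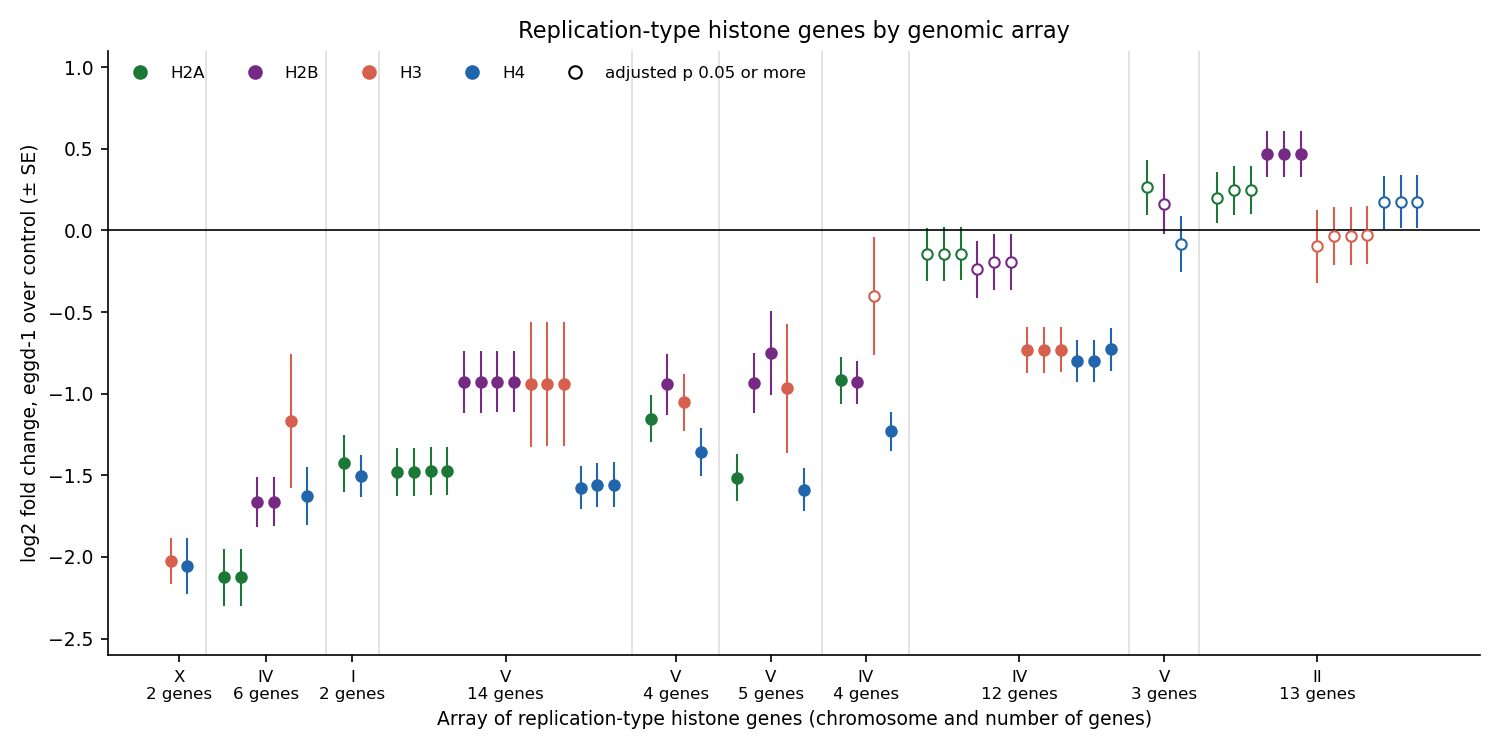
Log2 fold change of each replication-type histone gene (y axis, eggd-1 over control, bars are the DESeq2 standard error), grouped by array (x axis) and coloured by histone class, with open symbols for an adjusted p of 0.05 or more. The arrays run from the 2-gene array of chromosome X near -2.0 to the 13-gene array of chromosome II, whose genes lie between -0.10 and 0.47.

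The deepest fall was in the array of chromosome X (bases 7309564 to 7310520), a head-to-head pair of the H4 gene his-38 and the H3 gene his-40. The H3 gene his-40 had 2497 and 2806 normalized counts in controls and 664 and 640 in mutants. This was 4.07-fold lower (log2 fold change -2.02 ± 0.14 SE, DESeq2 adjusted p = 3.2e-43). Its partner his-38 had 946 and 1012 against 250 and 222, 4.16-fold lower (-2.06 ± 0.17, adjusted p = 8.5e-30). Neither gene's groups came near each other, and the 2 genes fell by almost the same factor.

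The 6-gene array of chromosome IV (bases 8331044 to 8336340) held the other genes past 4-fold. His-30, an H2A gene, had 1122 and 1309 normalized counts in the controls and 301 and 255 in the mutants, 4.36-fold lower (log2 fold change -2.12 ± 0.17 SE, DESeq2 adjusted p = 6.5e-32). A second H2A gene of the array, his-33, had counts within 2% of it, so both rows may report the same reads. The H2B gene his-34 had 2452 and 2953 against 918 and 789 (-1.66 ± 0.15, adjusted p = 2.1e-25), the largest fall among H2B genes. The H4 gene his-31 was at -1.62 ± 0.18. The H3 gene his-32 was at -1.16 ± 0.41, with controls of 1571 and 2702 that differed more from each other than the eggd-1 libraries did (1055 and 852), and its adjusted p was 0.015. All 6 genes were called lower, 5 of them without eggd-1 replicate 1, without eggd-1 replicate 2 or with the replicate block.

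The 2-gene array of chromosome I (bases 9988452 to 9989515) and the 14-gene array of chromosome V (bases 8847393 to 8898539) were lower throughout. The array of chromosome I summed to 5814 and 6897 normalized counts in the controls and 2314 and 2255 in the mutants, 2.78-fold lower. The 14 genes on chromosome V summed to 30899 and 41590 against 16422 and 15064, 2.30-fold lower. In this array the histone classes fell by different amounts: the 4 H2A genes were between -1.48 and -1.47 on the log2 scale, the 3 H4 genes between -1.58 and -1.56, the 4 H2B genes at -0.93 and the 3 H3 genes at -0.94. The H3 genes had the widest error (SE 0.38, adjusted p = 0.037 to 0.038), and 11 of the 14 genes were called lower when either eggd-1 library was left out. The remaining arrays of chromosome V, of 4 genes (bases 16040144 to 16042831) and 5 genes (bases 8532715 to 8536716), summed to 2.16-fold and 2.35-fold lower, with every gene called lower. When either eggd-1 library was left out, 3 genes of each of these arrays were called, and in the 5-gene array 4 were called without control replicate 2 or with the replicate block.

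In the 4-gene array of chromosome IV (bases 7485834 to 7488659), 3 genes were called lower and the H3 gene was not. The H4 gene his-60 had 11882 and 12575 normalized counts in the controls and 5380 and 5035 in the mutants, a log2 fold change of -1.23 ± 0.12. The H2A gene his-61 and the H2B gene his-62 were at -0.92 ± 0.14 and -0.93 ± 0.13. The H3 gene his-59 had 11765 and 19363 against 12519 and 11034, so that control replicate 1 lay between the eggd-1 libraries, and its log2 fold change of -0.40 ± 0.36 had an adjusted p of 0.40. It was called lower when control replicate 1 was left out, and also by edgeR with all 4 libraries.

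The 12-gene array of chromosome IV (bases 11324056 to 11407427) supplied most replication-type counts, with 56.3% and 57.6% in controls and 62.3% and 62.5% in mutants. It holds the 3 genes with the highest mean normalized count of every core class, whose copies have near-equal annotated lengths except his-57, which is annotated with 3 exons. The array's H3 and H4 genes were called lower, and its H2A and H2B genes did not pass the test. The H3 gene his-45 had 22585 and 27959 normalized counts in the controls and 16133 and 14316 in the mutants (log2 fold change -0.73 ± 0.14 SE, DESeq2 adjusted p = 1.5e-06), with both groups apart. Its copies his-55 and his-63 were also at -0.73. The H4 gene his-46 had 12621 and 14700 against 8176 and 7515 (-0.80 ± 0.13, adjusted p = 1.1e-08), and the H4 genes his-56 and his-64 were at -0.80 and -0.73.

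The H2A and H2B genes of the same array overlapped between the groups. The H2A gene his-57 had 9077 and 13154 normalized counts in the controls and 10471 and 9651 in the mutants, a log2 fold change of -0.14 ± 0.16 (adjusted p = 0.52), and its copies his-47 and his-65 were at -0.15 and -0.14. The H2B gene his-48 had 19888 and 31117 against 22470 and 20790, a log2 fold change of -0.24 ± 0.17 (adjusted p = 0.29), and his-58 and his-66 were both at -0.19. In each of these 6 genes control replicate 2 was the highest library and control replicate 1 the lowest. Without control replicate 1 all 12 genes of the array were called lower, with adjusted p-values of 0.0010 for his-47 and 1.4e-06 for his-48. Without control replicate 2 these 6 genes changed sign, to log2 fold changes of 0.10 to 0.14 with none called (adjusted p of 0.32 or more), and the array's median was -0.24. The direction of these 6 genes thus depended on which control library was used. Per kilobase of annotated exon, his-48 stood at 68555 normalized counts in the controls and 58145 in the mutants, beside 66481 and 34866 for his-62, the H2B gene of the 4-gene array.

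The 13-gene array of chromosome II (bases 13817760 to 13828697) was the only one with a gene called higher. It summed to 21042 and 26432 normalized counts in controls and 30950 and 27126 in mutants, 1.22-fold higher, and its share of replication-type counts was 6.37% and 6.04% in the controls and 11.4% and 11.03% in the mutants. The H2B gene his-44 had 3077 and 3731 normalized counts in the controls and 5018 and 4407 in the mutants, 1.38-fold higher (log2 fold change 0.47 ± 0.14 SE, DESeq2 adjusted p = 0.0038). Its copies his-11 and his-15, named here after their values were seen, were within 2% of it in every library. The H2A genes of the array were between 0.20 and 0.25, the H4 genes between 0.17 and 0.18 and the 4 H3 genes between -0.10 and -0.03, and none of these 10 passed the test, at an unadjusted p under 0.05 or by edgeR either. Without control replicate 2, 6 genes of the array were called higher, and without eggd-1 replicate 1 or eggd-1 replicate 2 no gene was, with adjusted p-values for his-44 of 0.27 and 0.058.

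The 3-gene array of chromosome V (bases 9544659 to 9547607) differs in structure from the others, with 2 exons and an annotated 3′ UTR in each gene. Its H2A gene his-35 had 520 and 595 normalized counts in the controls and 692 and 648 in the mutants, a log2 fold change of 0.26 ± 0.17 (adjusted p = 0.21). Its H2B gene his-41 had 381 and 448 against 465 and 465 (0.16 ± 0.18, adjusted p = 0.51). Its H4 gene his-37, the replication-type gene without fractional counts, had 617 and 534 against 559 and 526 (-0.08 ± 0.17, adjusted p = 0.74). None of the 3 passed the test, and in his-35 and his-41 both eggd-1 libraries lay above both controls.

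**Figure D3:**
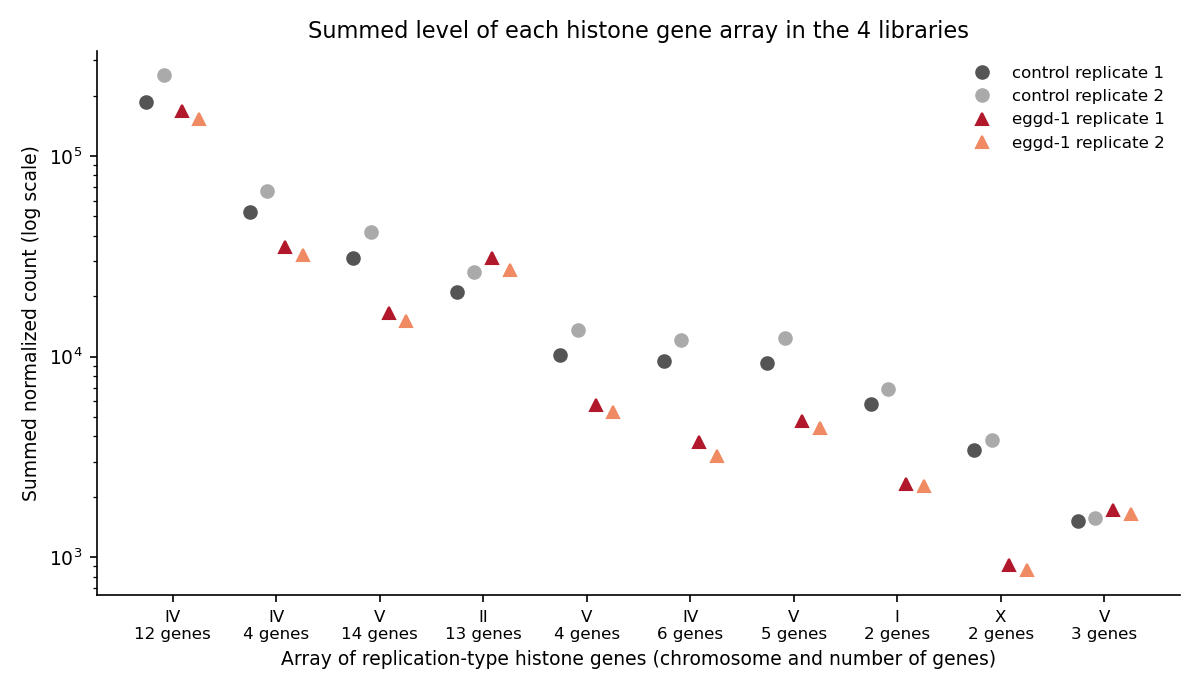
Summed normalized counts (y axis, log scale) of each array of replication-type genes (x axis, chromosome and number of genes) in the 4 libraries, circles for control and triangles for eggd-1. The eggd-1 triangles lie below both circles in 8 arrays and above both in the 13-gene array of chromosome II and the 3-gene array of chromosome V.

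Most replication-type genes lay head to head with a neighbour, with starts facing each other over a gap of 227 to 368 bases. There were 31 such pairs, 16 of an H2A with an H2B gene, 14 of an H3 with an H4 gene and 1 of the H2A gene his-68 with the H4 gene his-67. Within a pair the log2 fold changes differed by a median of 0.22 and at most by 0.83, in the pair of his-60 and his-59. In the 12-gene array of chromosome IV, the 3 pairs of H2A with H2B were at -0.24 to -0.14 and the 3 pairs of H3 with H4 at -0.80 to -0.73. In the 14-gene array of chromosome V the partners of a pair differed, the H2A and H4 genes having fallen further than the H2B and H3 genes beside them. These are descriptions of values already given by gene, with no test.

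The deposited table also marks genes as targets of small RNA pathways, taken from published lists. Of the replication-type genes, 10 were marked as targets of both the nuclear Argonaute HRDE-1 and the mutator protein MUT-16, 9 of them H4 genes and the other the H2A gene his-35. Of these 9 H4 genes 8 were called lower (20.4% of all rows), with a median log2 fold change of -1.56. The exception was his-37 (-0.08), and his-35 was not called either (0.26). Of the 7 H4 genes without the marks 4 were called lower, with a median of -0.73, and these 7 comprised the H4 genes of the 13-gene array of chromosome II, those of the 12-gene array of chromosome IV and his-1. Marks and arrays thus run together in the H4 genes, and the part of reads divided among H4 copies in this difference was not tested. Replication-type genes without any mark fell too: of 44, 29 were called lower and 1 higher, with a median of -0.93. Of 14 marked for the Argonaute WAGO-4, 6 were called lower and 2 higher, with a median of -0.22.

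Among the variants, the 3 abundant genes fell and the scarce ones were not called. Htz-1, which encodes H2A.Z, a variant placed at promoters, had 6779 and 8369 normalized counts in the controls and 5655 and 5239 in the mutants. This was 1.39-fold lower (log2 fold change -0.48 ± 0.14 SE, DESeq2 adjusted p = 0.0025), with both groups apart. The H3.3 gene his-72 had 4005 and 4564 against 3143 and 3115, 1.37-fold lower (-0.45 ± 0.13, adjusted p = 0.0020). The H3.3 gene his-74 had 3367 and 3098 against 2118 and 2192, 1.50-fold lower (-0.58 ± 0.13, adjusted p = 4.2e-05). When either eggd-1 library was left out, htz-1 and his-72 were no longer called (adjusted p from 0.083 to 0.18), and his-74 was not called without eggd-1 replicate 1 (0.054).

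The other H3.3 genes were at lower levels. His-71 had 345 and 388 normalized counts in the controls and 433 and 368 in the mutants, with overlapping groups and a log2 fold change of 0.13 ± 0.19 (adjusted p = 0.64). His-70, which the deposited table marks as spermatogenic, had 15.2 and 17.2 against 26.5 and 34.2, a log2 fold change of 0.90 ± 0.61 (adjusted p = 0.24, or 0.027 by edgeR). The same mark is on 4 abundant H2B genes, his-48, his-58, his-62 and his-66. Of these, 1 was called lower and none higher, with a median of -0.22. His-69, the neighbour of his-70, had 4.5 and 6.75 deposited counts in the controls and 0.75 and 1.75 in the mutants, too few for a test. Per kilobase of annotated exon the H3.3 genes stood in the controls in the order his-72 (6716 normalized counts), his-74 (5573), his-71 (620), his-70 (39.9) and his-69 (12.2), and htz-1 stood at 10318.

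**Figure D4:**
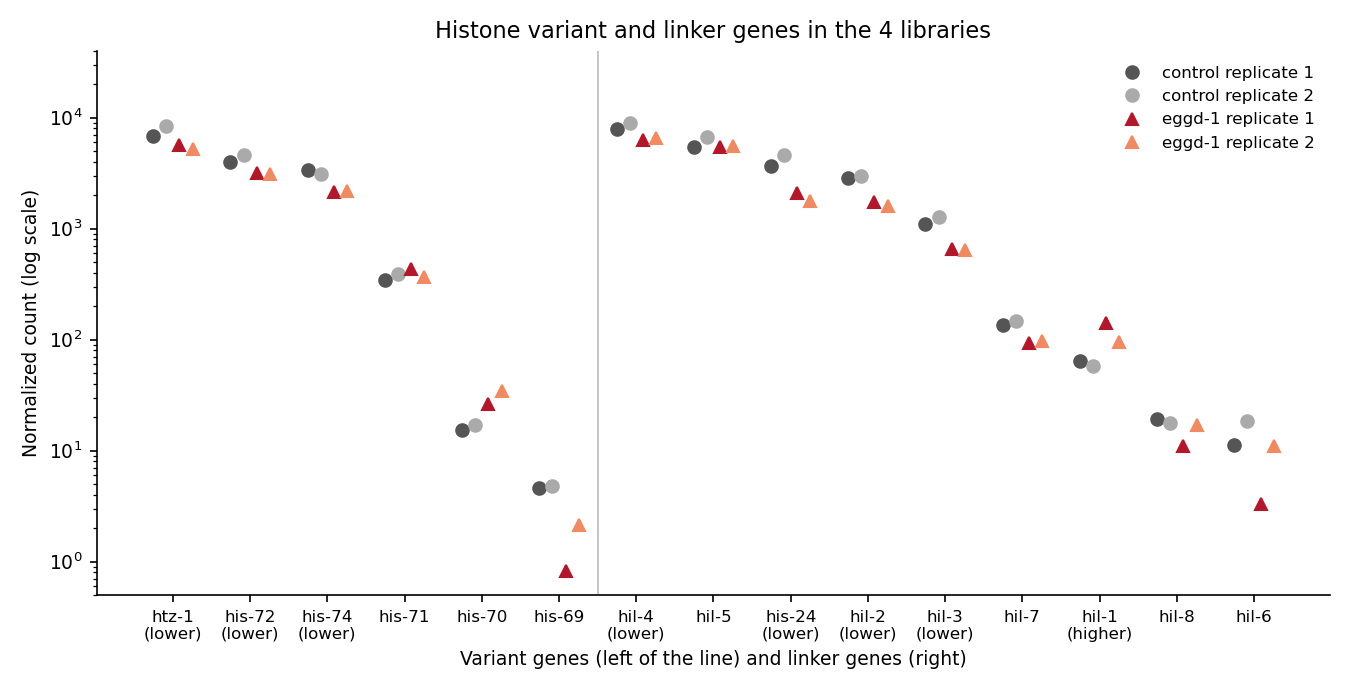
Normalized counts (y axis, log scale) of the 6 variant genes and 9 linker genes (x axis) in the 4 libraries, circles for control and triangles for eggd-1, with the DESeq2 call under the gene name. Among called genes, triangles lie below circles for htz-1, his-72, his-74, hil-4, his-24, hil-2 and hil-3, and above them for hil-1. Without a call they also lie below for his-69, hil-6, hil-7 and hil-8 and above for his-70.

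Among the linker genes, his-24 changed the most. His-24, an H1 gene known for a role in germline silencing, had 3634 and 4580 normalized counts in the controls and 2091 and 1765 in the mutants, 2.13-fold lower (log2 fold change -1.09 ± 0.15 SE, DESeq2 adjusted p = 3.1e-11). Hil-3 had 1094 and 1269 against 654 and 646, 1.82-fold lower (-0.86 ± 0.16, adjusted p = 3.8e-07), and hil-2 had 2825 and 2952 against 1747 and 1585, 1.73-fold lower (-0.79 ± 0.13, adjusted p = 3.3e-08). In these 3 genes the groups were well apart. Hil-4 had 7856 and 8942 against 6322 and 6520, 1.31-fold lower (-0.39 ± 0.13, adjusted p = 0.0072), and was not called without eggd-1 replicate 1 (0.23) or eggd-1 replicate 2 (0.17).

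Hil-1 was the one linker gene called higher. It had 63.8 and 57.2 normalized counts in the controls and 140 and 94.2 in the mutants, a log2 fold change of 0.96 ± 0.35 (DESeq2 adjusted p = 0.017). It lost its call when any single library was left out (adjusted p from 0.065 to 0.45) and with the replicate number as a block (0.055). Hil-5 had 5460 and 6737 against 5485 and 5526, with overlapping groups and a log2 fold change of -0.15 ± 0.14 (adjusted p = 0.41, or 0.019 without control replicate 1). Hil-7 had 136 and 148 against 92.8 and 97.9 (-0.58 ± 0.29, adjusted p = 0.10, or 0.010 by edgeR). Hil-6 and hil-8 had at most 26 counts in any library and were not called.

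Histone RNA was next set beside genes that make, carry or use histones, from lists chosen with results of these data known. Of 20 measured genes for histone mRNA 3′ end formation, 7 were called lower and 1 higher (20.4% and 18.6% of all rows), with a median log2 fold change of -0.24. The largest falls were in lsm-7, of the Lsm ring that binds U-rich RNA (-1.11 ± 0.17), and cpf-1, a subunit of the cleavage stimulation factor (-1.08 ± 0.15). The SLBP gene cdl-1, named for its role, had a log2 fold change of -0.22 ± 0.13 (adjusted p = 0.16). The small RNA pathway genes csr-1, ego-1, drh-3 and ekl-1, known to act in maturation of core histone mRNA in C. elegans, lay between -0.30 and 0.25 on the log2 scale, and the lowest adjusted p among them was 0.070, for ego-1.

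Of 23 genes for histone chaperones and chromatin assembly, 5 were called lower and 4 higher, with a median of -0.03. These counts are near the 20.4% lower and 18.6% higher of all rows. The largest changes were in chaf-1, of the replication-coupled assembly factor CAF-1 (0.65 ± 0.16), and gfl-1, of complexes that bind acetylated chromatin (-0.65 ± 0.16). Chaf-2, also of CAF-1, was called the other way (-0.44 ± 0.13). Of 3 further histone-fold variants outside the naming rule, the sperm H2A variant htas-1 was higher (log2 fold change 1.98 ± 0.41) and the CENP-A paralogue cpar-1 lower (-0.47 ± 0.14). The CENP-A gene hcp-3 was at -0.24 ± 0.13 and was not called.

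Of 40 measured DNA replication and S phase genes, 15 were called lower and 1 higher (20.4% and 18.6% of all rows), with a median of -0.23. The largest falls were in psf-2 (-1.16 ± 0.16) and psf-1 (-0.98 ± 0.15), both subunits of the GINS replication complex, and the list summed to 160750 and 180185 normalized counts in the controls and 149350 and 153891 in the mutants. The part of these genes in the histone result was not tested.

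Markers of embryos and germ cells were read in the same fit. Early zygotic embryo genes summed to 4853 and 5744 normalized counts in the controls and 4387 and 4325 in the mutants, mostly from lin-26 and die-1. Of 15 tested, 6 were called lower (20.4% of all rows), including ceh-51 (log2 fold change -1.39 ± 0.58) and pes-10 (-1.34 ± 0.28), while hlh-27, lin-26 and nob-1 lay between 0.03 and 0.14, and the median of those with a mean of at least 10 was -0.54. The embryo genes med-1 and tbx-35 had 2 to 5 counts in each control library and 0 in the eggd-1 libraries. Sperm genes summed to 494 and 635 against 2589 and 2283, with 8 of 10 called higher (18.6% of all rows), among them spe-11 and alg-4 (both 2.58). Of 10 oocyte genes 3 were called higher (18.6% of all rows), including egg-1 (0.60 ± 0.15). The 2 called lower (20.4% of all rows) included perm-2 (-0.61 ± 0.12). Both oocyte counts are near the shares of all rows. Of 6 genes listed for proliferating germ cells only sygl-1 was called, as lower (-0.59 ± 0.14), and the others lay between -0.32 and 0.35. The list summed to 27376 and 32464 against 29803 and 31912. Its largest part was gld-1 (13207 and 17520 against 16541 and 17993), which is not specific to proliferating cells. The part of these markers in the histone result was not tested.

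**Figure D5:**
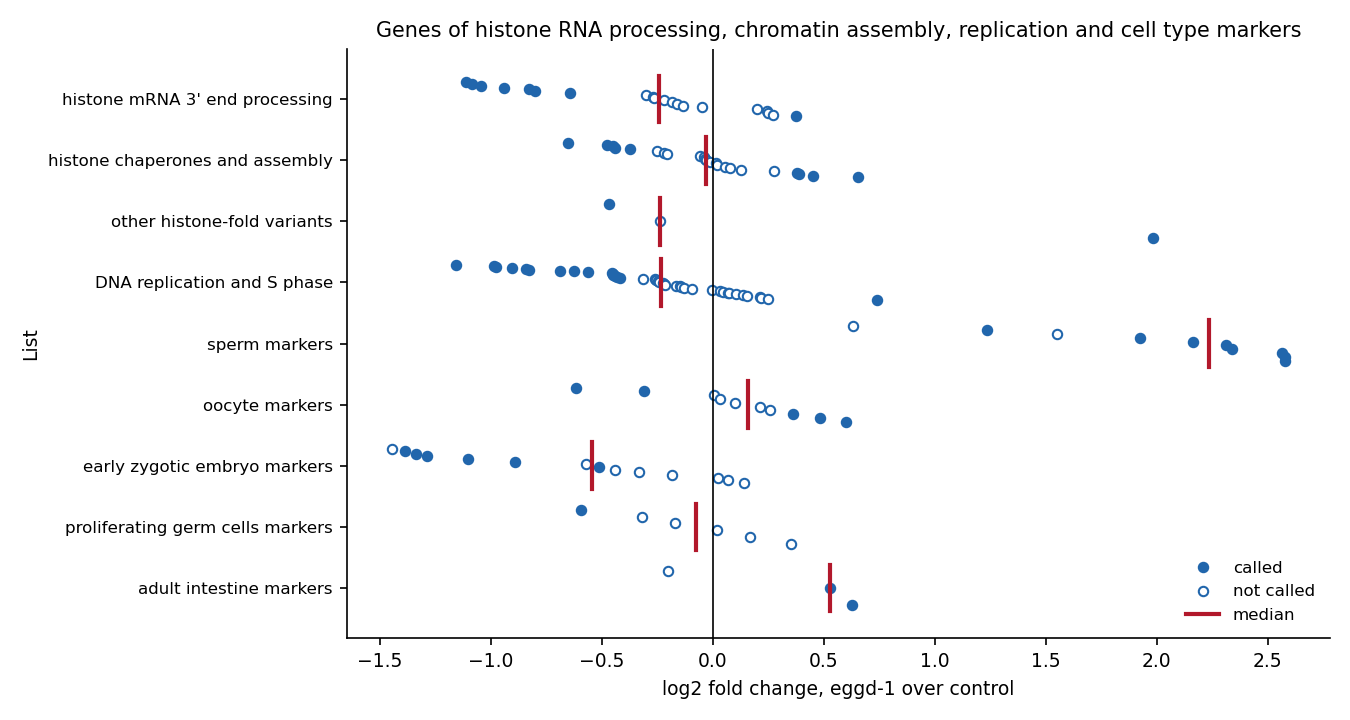
Log2 fold change (x axis, eggd-1 over control) of each gene averaging 10 or more normalized counts in the lists of histone-related genes and cell type markers (y axis), filled for called genes, with the list median as a bar. List medians run from -0.54 for early zygotic embryo markers to 2.24 for sperm markers, with -0.24 for histone mRNA 3′ end processing and -0.23 for DNA replication.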

How the data were processed

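Whole-animal total RNA from synchronized adults was depleted of rRNA with RNase H, so RNA without a poly(A) tail was kept, and sequenced as paired ends from a directional kit. Per the study's methods and the submitters' notes, reads were trimmed with Trim Galore and aligned with STAR to WormBase WS279, allowing at most 10 loci per read, so reads from more copies than that were dropped. FeatureCounts counted by strand and divided each multi-mapped read among its loci. The deposited values are therefore expected counts per gene, not normalized, made by the authors, and the tool versions are not given in the sources used here. The deposited table also holds 7 columns of values that matched no sample, which were not used.

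Here expected counts were rounded to whole numbers and all 4 libraries and all rows with a count were fitted with DESeq2 1.42.0 in R 4.3.3. The p-values were adjusted by the Benjamini-Hochberg method over the 16773 of 25765 fitted rows that DESeq2's independent filtering on mean count left, and a row was called at an adjusted p under 0.05, with 4-fold as a separate limit. Total counts were 20223368 and 30812591 in the control libraries and 18707358 and 17603513 in the eggd-1 libraries. Intervals of fold changes are standard errors. Replicate libraries correlated at 0.995 and 0.997 across rows, and libraries of different groups at 0.954 to 0.967. By chi-square per degree of freedom between the counts of a pair, the control libraries differed more (26.8) than the eggd-1 libraries (4.89). Greater depth also raises this value, and the controls were the deeper pair. A spread between libraries is the pooled SD of log2 sums. Alternatives were edgeR 4.0.16 (quasi-likelihood), other size factors, a filter of 10 counts in 2 libraries, rounding down, a replicate block and leaving out each library.

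The histone genes and the gene lists were chosen with earlier results of these data known. Named genes are the 3 with the highest mean count in each core class, the largest called change in each direction per class, all variants, his-35, all linkers, mip-1 and the 2 largest called changes of each list. Other genes named, chiefly members of the arrays, were chosen after their values were seen. Histone class was assigned from a fixed list of gene names and was not checked against protein sequences. Positions and exons were taken from the Ensembl annotation of WBcel235, in which 99.98% of gene rows were found. Lengths of most replication-type genes are coding lengths. The lists named lsm-2, pup-1 and cdc-45, which matched no row under these names.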

Additional observations from a re-analysis of the deposited data

How the results depend on the processing

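Of 176 summary values recomputed under the alternatives, 158 kept their direction and stayed within the limits set (1.5 times for a count, the spread between libraries for a median or ratio). The values are not all distinct, because the linker genes entered both as linker and as H1, with the same values. No called value of a named gene changed sign. Of genes without a call, the H2A and H2B genes of the 12-gene array of chromosome IV turned positive without control replicate 2. Over the fits that left out 1 library, log2 fold changes ran from -0.40 to 0.13 for his-47, his-57 and his-65, from -0.54 to 0.10 for his-48 and from -0.49 to 0.14 for his-58 and his-66. They ran from -0.20 to 0.013 for his-37, positive without control replicate 1, and from -0.00030 to 0.24 for his-71, negative without eggd-1 replicate 1. With edgeR 51 histone genes were called lower and 5 higher, with all 49 and 4 of the DESeq2 calls kept. Other size factors, the count filter and rounding down left 49 and 4. The filter of 10 counts in 2 libraries removed his-69 and moved the H3.3 median from -0.45 to -0.15. Replicate numbers are shared by the groups but no label pairs the libraries, and deviations of same-numbered libraries correlated at -0.045 over 15192 rows. With the replicate block 47 were called lower and 3 higher. Leaving out 1 library, the lone library of its group was assumed to vary like the other group. Over these 4 fits the calls ran from 38 to 57 lower, 0 to 6 higher and 2 to 4 lower at 4-fold. The log2 medians ran from -0.55 to -0.35 for variants, -0.72 to -0.45 for linkers, -1.30 to -1.02 for H2A, -1.06 to -0.58 for H2B, -0.89 to -0.52 for H3, -1.40 to -1.20 for H4 and -0.53 to -0.37 for H3.3. The log2 ratios of sums ran from -0.57 to -0.40 for variants, -0.60 to -0.38 for linkers, -0.51 to -0.45 for H3.3, -0.60 to -0.09 for H2B and -0.65 to -0.25 for H2A. His-69, hil-6 and hil-8, with at most 26 counts in a library, were too shallow for a change to be shown.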
